A study of Schizosaccharomyces pombe with 6 samples.

Results

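The capped 5′ ends of RNAs in growing wild-type fission yeast were mapped by cap analysis of gene expression (CAGE), and the 3 wild-type libraries of 6 in the series are described here over every tag cluster that the authors deposited. A tag cluster is a run of neighbouring 5′ ends on 1 strand, with a summit at its position of most tags. Of 108138 clusters, 72168 held at least 1 wild-type tag. The strain, Hu0029, carried h- ade6-M210 leu1-32 ura4-D18, so it was an adenine, leucine and uracil auxotroph of M mating type. Its cells were grown with shaking at 180 rpm in YES, a rich yeast extract medium, at 30 °C and harvested in mid-log phase, and total RNA was taken from whole cells. The other libraries of the series came from a double mutant of 2 chromatin remodelling ATPases, and none of their values is used. The labels speak of duplicate cultures and of triplicate libraries, so wild-type libraries may share a culture and the spread between them may be technical. The clusters, their widths and their summits were defined over all 6 libraries together, so a width is not that of wild-type cells alone, and any change of position within a cluster would go unseen.

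RNA polymerase II starts transcription where general transcription factors place it on a core promoter. In many promoters the start lies on an initiator, a short step of a pyrimidine followed by a purine, where the purine becomes the first base of the RNA. A TATA box is bound by the TATA-binding protein and, in fission yeast as in animals, lies a short distance upstream of the start. Most ribosomal protein genes of fission yeast lack a TATA box and carry a HomolD box instead, an element first described in those promoters. The stretch between the start site and the start codon is the 5′ leader, which the small ribosomal subunit scans for the first suitable AUG.

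Promoter stretches of 70 bases show the elements that the results below turn on. They were read from the reference genome (assembly ASM294v3), each from 60 bases upstream of the start base to 9 bases downstream of it, on the strand of the gene. Capitals mark the TATAAA or HomolD match and the 2 bases of the initiator step. The 3 highest promoters outside the ribosomal protein genes that have TATAAA on the strand of the gene come first. They lie at chrII:2807535-2807604 (plus strand) for tdh1, chrI:5174645-5174714 (minus strand) for gpm1 and chrII:4159451-4159520 (minus strand) for pgk1, all genes of glycolysis.
tdh1: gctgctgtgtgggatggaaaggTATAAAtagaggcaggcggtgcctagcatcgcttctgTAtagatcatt
gpm1: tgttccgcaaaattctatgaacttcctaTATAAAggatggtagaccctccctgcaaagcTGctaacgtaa
pgk1: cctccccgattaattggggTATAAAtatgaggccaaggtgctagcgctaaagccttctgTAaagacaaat

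Ribosomal protein promoters carry CAGTCACA, the HomolD box, on either strand. The highest ones with the box on the strand of the gene were rpl2102 at chrI:3400468-3400537 (plus strand) and rps801 at chrI:4287423-4287492 (minus strand). The box on the opposite strand reads TGTGACTG, as in rpl1001 at chrII:2081420-2081489 (plus strand) and rps3 at chrII:4239333-4239402 (minus strand).
rpl2102: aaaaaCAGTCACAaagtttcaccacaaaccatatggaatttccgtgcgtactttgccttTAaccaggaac
rps801: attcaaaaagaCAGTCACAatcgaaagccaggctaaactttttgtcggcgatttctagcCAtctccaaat
rpl1001: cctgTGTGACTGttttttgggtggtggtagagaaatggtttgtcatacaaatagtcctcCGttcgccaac
rps3: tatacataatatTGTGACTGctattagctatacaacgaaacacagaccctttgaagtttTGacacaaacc

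Wide tag clusters are shown by sks2 at chrII:1106336-1106405 (plus strand), which also has the opposite-strand box, and by tkt1 at chrII:2586320-2586389 (plus strand). These are the highest promoters with a cluster over 100 bp wide, apart from eca39, whose summit lies inside the annotated coding part. The clusters of sks2 and tkt1 have their summits upstream of the start codon but run on past it.
sks2: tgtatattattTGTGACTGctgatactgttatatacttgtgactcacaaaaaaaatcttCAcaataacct
tkt1: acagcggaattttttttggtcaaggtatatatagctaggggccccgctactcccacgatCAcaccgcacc

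The libraries held 20073000, 12681900 and 19765000 tags in replicates 1, 2 and 3, recovered from the deposited values, and between 91.5% and 92.3% of them lay in clusters. All values are tags scaled to the library total (TPM, the usual CAGE unit, where T stands for tags), and because a CAGE tag counts 1 RNA end, levels of genes of different length can be set side by side. At 1 TPM the counting error of a library was between 22.3% and 28.1% of the value, and at 5 TPM between 9.98% and 12.6%. These errors and limits cover counting only, and they are minima because PCR copies of a molecule were not told apart. A library with no tag allows up to 3 tags, which is 0.149, 0.237 and 0.152 TPM in replicates 1, 2 and 3. Replicate 2, the shallowest library, stood apart from the others in a set of genes described at the end, and results that rest on it are given without it there.

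The genotype labels and the growing state were checked on their genes. The gene ura4, deleted in ura4-D18, had 0.0498, 1.58 and 0.152 TPM in its promoter window and no tag in its coding part, whereas ade6 had 142, 147 and 134 TPM and leu1 had 462, 431 and 529 TPM. The remodeller genes that the mutant lacks were present in every library, fft2 with 68.6, 68.0 and 66.3 TPM and fft3 with 65.1, 45.5 and 103 TPM. The growth markers act1 (actin), adh1 (alcohol dehydrogenase) and cdc2 (the cell cycle kinase) averaged 2165 ± 236, 9405 ± 391 and 58.6 ± 16.0 TPM (SD, n = 3). Of the markers of meiosis, mei3, the inducer of meiosis, had no tag in its promoter window, and dmc1 averaged 0.801 TPM, rec8 1.87 TPM and mei4 2.63 TPM. In contrast spo6 averaged 21.8 TPM, near the median of 29.3 TPM over coding genes of at least 1 TPM, and mei2 had 7.42, 189.9 and 9.61 TPM. The mating type genes were mixed. The M-specific pheromone gene mfm1 had 0.847, 93.8 and 6.22 TPM and mam1, the M-factor exporter, had 16.4, 24.2 and 9.31 TPM. These were the 2 highest of 8 M-type genes, of which 5 averaged at least 1 TPM. The other 3, mfm2, mfm3 and mam2, averaged 0.785, 0.340 and 0.674 TPM. The P-specific pheromone gene map2 had no tag, map3, listed as P type, averaged 0.313 TPM and the P-specific map1 had 2.69 ± 0.894 TPM (SD, n = 3). But sxa1, also listed as P type, had 464, 393 and 412 TPM. The mat1-Mc and mat1-Mi genes had no tag, and the first 27 bases of each recur in the genome, so their tags could not be told from those of copies.

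The wild-type signal was concentrated at coding promoters. A cluster was assigned to a gene when its summit lay on the strand of the gene from 500 bp upstream to 100 bp downstream of the annotated start, or as far as the start codon. Coding promoters held 97.1 ± 0.0468% of clustered tags (SD, n = 3). Clusters inside genes held 1.68 ± 0.0306%, promoters of non-coding RNAs 0.358 ± 0.0188%, antisense clusters 0.296 ± 0.0104% and clusters in none of these places 0.587 ± 0.0138%. Of the 108138 clusters 53953 (49.9%) were 1 bp wide, and these held 3.83% of the tags. The 9076 clusters of at least 1 TPM held 99.1% of the tags, and 160 clusters of at least 1000 TPM held 60.2%. A tag in each of the 3 libraries was found in 32254 clusters, which is 29.8% of all pooled clusters and 44.7% of those with a wild-type tag.

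Coding genes of at least 1 TPM ran from 1.01 to 29814 TPM. The level of a gene adds up all clusters assigned to its promoter. Of 5113 coding genes, 4628 (90.5%) reached a mean of 1 TPM, 2816 reached 20 TPM, 1014 reached 100 TPM and 160 reached 1000 TPM. The median was 29.3 TPM, with quartiles at 11.2 and 85.2 TPM, and 85 genes held 50% of all coding promoter tags. The gene of highest level was tdh1, which encodes glyceraldehyde-3-phosphate dehydrogenase, with 33434, 31894 and 24114 TPM in replicates 1, 2 and 3. It was lowest in replicate 3 and held 3.34% of coding promoter tags. Next came tef103, a gene of translation elongation factor EF-1 alpha, with 20922, 18912 and 22096 TPM. The 3rd was pdc101, pyruvate decarboxylase, with 13897, 14921 and 15322 TPM. From the 3rd place on the libraries of neighbours overlapped, so the order was not clear of the spread. The glycolytic mutase gene gpm1 averaged 14365 ± 2477 TPM, the ribosomal protein gene rps1002 averaged 13742 ± 850.3 TPM and the enolase gene eno101 averaged 13043 ± 1099.9 TPM (SD, n = 3 each). A gene of unknown function, SPAC27E2.11C, stood 7th with 12479, 12607 and 10037 TPM, and the 8th was cpc2, the RACK1 protein of the small ribosomal subunit, with 10266, 9711 and 11141 TPM.

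**Figure D1:**
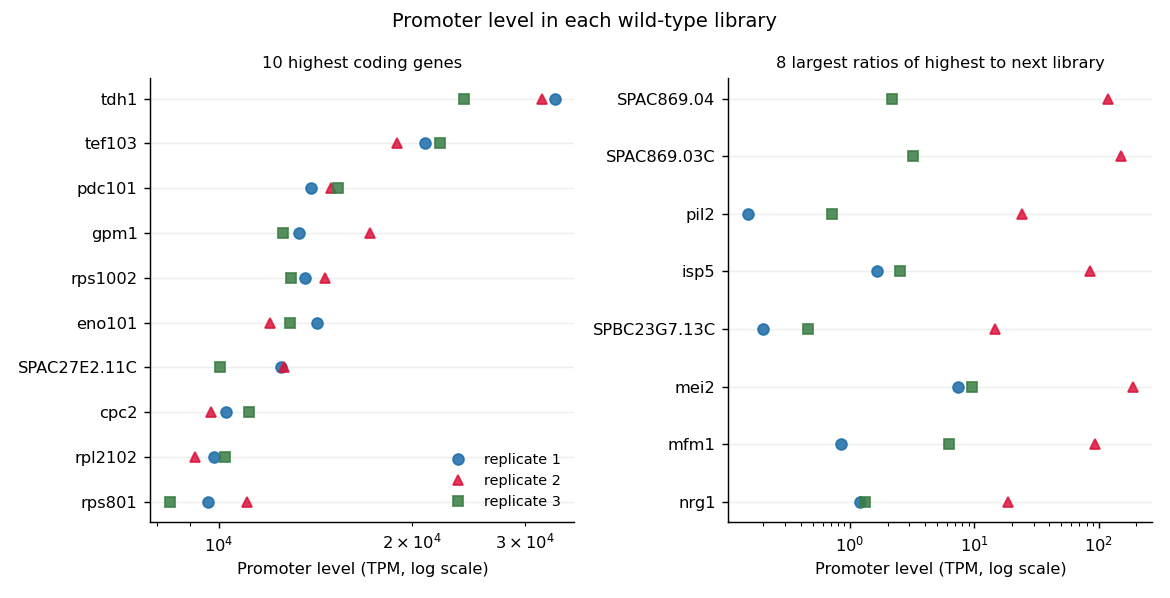
Promoter levels in TPM on log axes in wild-type replicates 1 (circles), 2 (triangles) and 3 (squares). The left panel holds the 10 coding genes of highest mean. Among genes averaging 5 TPM or more, the right panel holds the 8 with the largest ratio of the highest to the next library. That average includes the highest library, and some of the 8 reached 5 TPM only through it. In the left panel no library is high throughout, whereas in the right panel replicate 2 is the highest for every gene, and replicate 1 of SPAC869.04 and SPAC869.03C is missing because it held 0 tags.

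Genes of protein synthesis took the largest share. The 138 ribosomal protein genes all reached 1 TPM, with a median of 1084.4 TPM against 29.3 TPM over all coding genes of at least 1 TPM, and together they held 30.3% of coding promoter tags. Their levels differed widely: rps1002 had 13636, 14640.2 and 12949.5 TPM, while rpl3801, 1 of 2 genes for the large-subunit protein eL38, had 9.02, 10.01 and 7.64 TPM. Its paralog rpl3802, chosen after its values were seen, had 232, 255 and 234 TPM. The 19 translation factor genes had a median of 900.0 TPM, with tef103, tef3 (elongation factor 3, 7243, 6659 and 9401 TPM) and eft202 (elongation factor 2) on top and sui1 (the initiation factor eIF1, 16.9, 12.3 and 14.0 TPM) lowest. The 39 mitochondrial ribosomal protein genes had a median of 35.6 TPM, close to that of all genes, and ran from 107 TPM for mrps9 to 2.53 TPM for mrpl15.

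Genes of glucose breakdown came next. The 13 glycolysis genes had a median of 2682.9 TPM and held 8.97% of coding promoter tags. The exception at the bottom was eno102, a further enolase gene, with 1.89, 6.94 and 2.48 TPM, where replicate 2 was the highest. Among 8 genes of fermentation and aldehyde metabolism, pdc101 and adh1 stood far above the rest, with pdc202 at no tag. Oxidative phosphorylation genes had a median of 186 TPM over the 33 of 34 that reached 1 TPM. Cytochrome c (cyc1) had 1192, 1004 and 1246 TPM, and atp2, the beta subunit of ATP synthase, had 715, 662 and 769 TPM. The lowest, cox8, averaged 0.439 TPM.

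Among housekeeping genes, the 24 chaperone genes had a median of 357 TPM. The Hsp70 gene ssa2 had 5171, 4021 and 4795 TPM, hsp90 had 2869, 2813 and 2346 TPM, and the small heat shock gene hsp16 was lowest with 21.9 TPM on average. The 11 histone genes had a median of 474 TPM. The H2B gene htb1 had 5732, 5738 and 3669 TPM, and hta1, an H2A gene, had 1398, 1514 and 1039.7 TPM, both lowest in replicate 3. The centromeric H3 gene cnp1 had 12.40, 11.99 and 11.69 TPM. Proteasome genes had a median of 118 TPM over the 28 of 29 that reached 1 TPM, with pre6 and pre3 of the core particle at 329 and 315 TPM. The 1 member without a tag, rpn501, has a 5′ end that recurs in the genome. RNA polymerase II subunit genes (12) had a median of 82.8 TPM and ran from 446 TPM for rpb4 to 21.4 TPM for rpb8. The 21 cytoskeleton genes had a median of 95.6 TPM and were led by act1 with 2262, 1895 and 2337 TPM. The 30 cell cycle regulators had a median of only 15.8 TPM. In that list cdc22, the large subunit of ribonucleotide reductase, had 1314, 1092 and 801 TPM, the B-type cyclin gene cdc13 had 303, 338 and 346 TPM, and the G1 cyclin gene puc1 had 0.847, 1.10 and 1.21 TPM.

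Some lists of genes used outside growth in rich medium had a larger share of members under 1 TPM than all genes, and others had not. Over all coding genes 485 were under 1 TPM (9.49%), and 153 of those had no tag. Of 31 genes of meiosis and sporulation 13 were under 1 TPM (41.9%), and the median of the other 18 was 2.93 TPM. Its highest member was spo15, a spindle pole body gene annotated in mitosis as well as meiosis, with 206, 189 and 188 TPM. Of 91 mug genes, named for a rise in meiosis, 37 were under 1 TPM (40.7%) and the median of the rest was 10.1 TPM. Of 14 genes on a list of glucose-repressed genes and their regulators 7 were under 1 TPM (50%), among them the hexose transporter gene ght3 with no tag. The 1 very high member, mae2, encodes malic enzyme and had 2582, 1889.5 and 2240.3 TPM, and ght8, a hexose transporter gene, had 128, 128 and 171 TPM. Nearer the share of all genes, 3 of 26 core stress genes (11.5%) and 1 of 14 genes of nitrogen and amino acid uptake (7.14%) were under 1 TPM, and none of 9 phosphate genes was. The core stress genes of at least 1 TPM had a median of 39.8 TPM, and the highest were obr1, a quinone reductase, with 1548, 1525 and 1425 TPM, tpx1, a thioredoxin peroxidase, with 1494.8, 1592 and 1378 TPM, and gpd1, a glycerol-3-phosphate dehydrogenase, with 1068, 1518 and 1853 TPM. Phosphate genes (9) had a median of 43.1 TPM, led by the transporter gene pho84 with 502, 495 and 425 TPM. All members of these lists were counted, and a level under 1 TPM does not show that a gene is silent. Of the 153 genes with no tag, 79 have a 5′ end whose first 27 bases recur in the genome, and 74 do not. Over all 5113 coding genes only 89 have such a 5′ end. None of the 108138 clusters had its start base at a recurring 5′ end, so the levels of those 89 genes are uncertain.

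**Figure D2:**
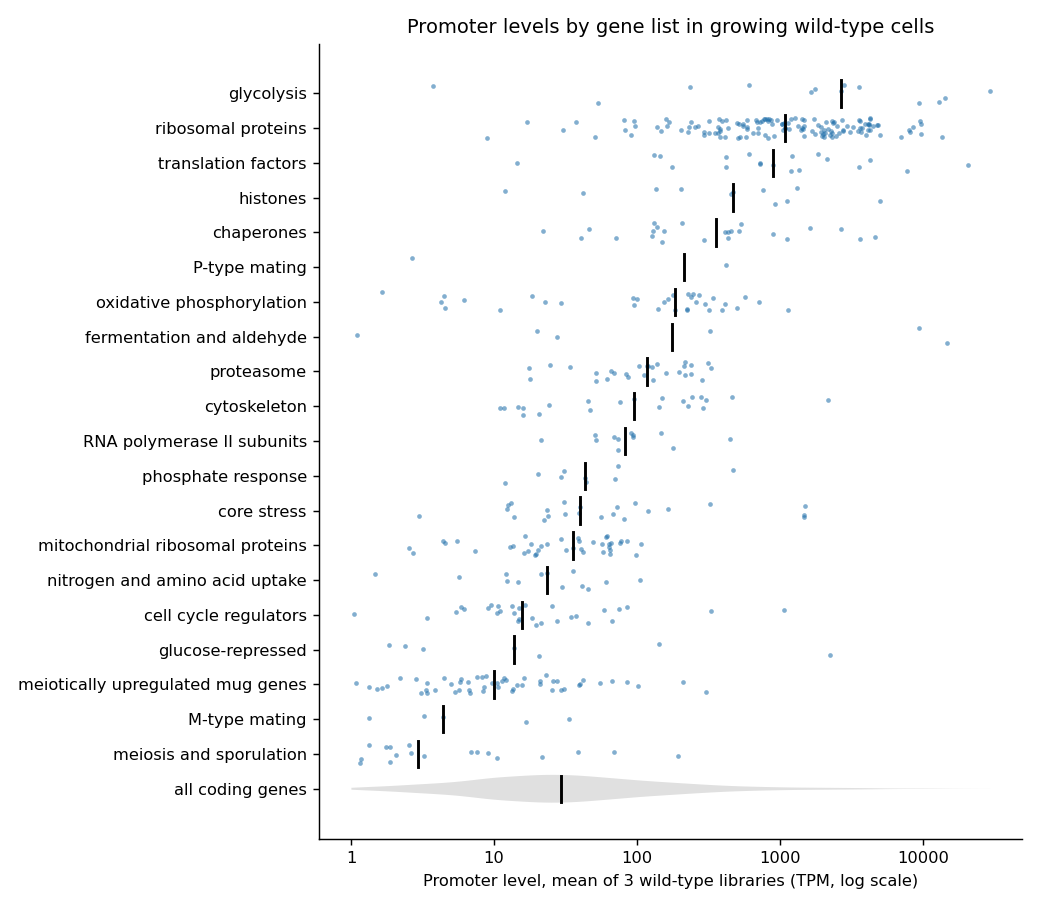
Mean promoter level of 3 wild-type libraries in TPM on a log axis, with a point for each gene of at least 1 TPM in each list, a black bar at the median of the list, and the distribution of all coding genes in grey at the bottom. Medians run from 2682.9 TPM for glycolysis to 2.93 TPM for meiosis and sporulation, against 29.3 TPM for all coding genes.

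Start sites of most genes lay in a narrow stretch. The main cluster of a gene, the cluster with more of its tags than any other, had a median width of 22 bp, with quartiles at 11 and 37 bp, and 5% of widths lay over 74 bp. Widths were smaller in genes of high level: the median was 24, 28, 23, 14 and 8 bp for genes of 1 to 5, 5 to 20, 20 to 100, 100 to 1000 and over 1000 TPM. Across the 4628 genes, which are not independent replicates, Spearman's rho of level and width was -0.25. The number of tags behind a cluster differs between these groups, and its part in the widths was not tested. Main clusters of 1 bp occurred in 70 genes. They included cpc2, tal1 (transaldolase, 5300.2, 4362 and 4854 TPM), plb1 (a phospholipase, 3319, 2576 and 3265 TPM), spi1 (the Ran GTPase, 1934, 1931 and 3010.2 TPM) and tpx1. Of these spi1 was high in replicate 3, and the highest library differed from gene to gene in the rest. By list, the median width was 4 bp for glycolysis, 8 bp for translation factors and for histones, 10 bp for ribosomal proteins and 24 bp for mitochondrial ribosomal proteins.

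Wide clusters were few, with 106 of 4628 genes (2.29%) over 100 bp. The widest among genes of at least 20 TPM was that of tkt1, transketolase of the pentose phosphate pathway, whose cluster ran over 650 bp and held 99.7% of the tags of a gene with 1846, 1840.2 and 2142 TPM. The chaperone gene sks2, whose protein binds the ribosome, had 2675, 4132 and 4155 TPM over 223 bp and was lowest in replicate 1. Others were oaa1 (273 bp, 229, 209.5 and 211 TPM), erb1, a gene of ribosome biogenesis (242 bp, 318, 259.7 and 239.7 TPM), and gor1, glyoxylate reductase (227 bp, 111, 108 and 118 TPM). The clusters of tkt1, sks2 and erb1 ran past the annotated start codon. Their summits lay 140, 59 and 2 bp upstream of it, and most of each width lay past it. Those of oaa1 and gor1 lay upstream of the start codon. The rule that set the borders of clusters is not given in the sources used here, so a width may count scattered tags as well as the summit.

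**Figure D3:**
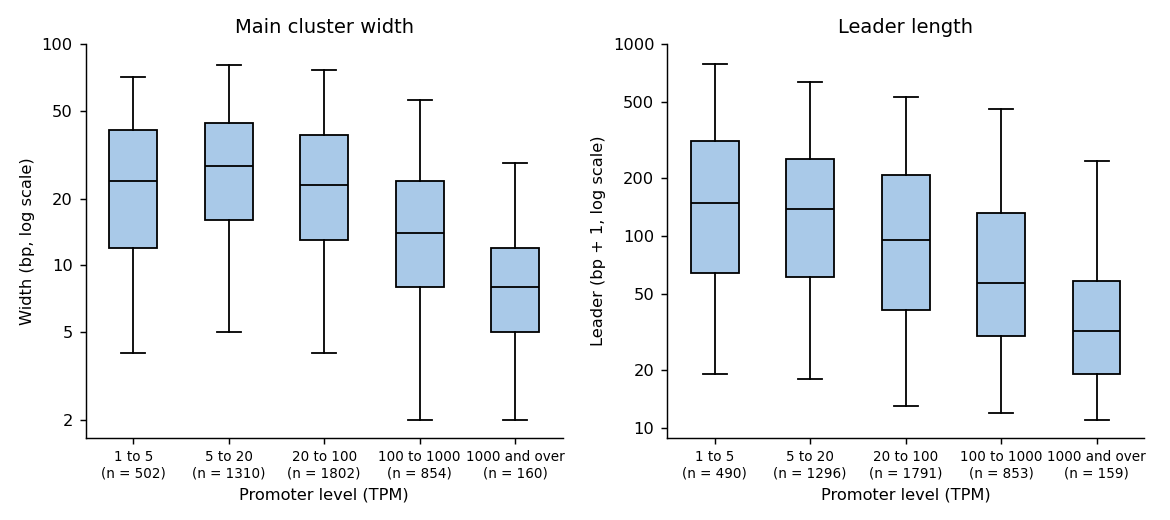
Width of the main cluster (left, bp) and leader length (right, bp + 1) on log axes for coding genes grouped by mean promoter level in TPM, as boxes from the lower to the upper quartile with the median as a line and whiskers at the 5th and 95th percentiles. Both medians are lowest for genes over 1000 TPM, at 8 bp for width and 31 bp for the leader before the 1 is added.

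Most genes used 1 start site. Counting each cluster of at least 1 TPM that holds at least 10% of the level of the gene as a site, 4167 genes had 1 site, 384 had 2, 44 had 3 and 4 had 4. The share with 2 or more was 9.33%, and 29 genes had no cluster of 1 TPM on its own. By level the share was 6.77%, 16.8%, 8.05%, 3.86% and 0% from the lowest to the highest group. Because each site needs 1 TPM of its own, a gene close to 1 TPM cannot have a further site. The share of the lowest group is therefore held down by the definition and cannot be set against the others. Genes with several sites were lower (median 15.3 TPM against 32.0 TPM for genes with 1 site) and had longer leaders (217.5 bp against 90 bp). The 484 further sites lay 273 upstream and 211 downstream of the main site, at a median distance of 186 bp.

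By list, further sites occurred in 10 of 54 mug genes (18.5%), in 3 of 13 genes of nitrogen and amino acid uptake (23.1%), in 2 of 11 histone genes, which were cnp1 and pht1 (the H2A.Z gene), and in 2 of 138 ribosomal protein genes (1.45%), against 9.33% of all coding genes. None of the 39 mitochondrial ribosomal protein genes, 33 oxidative phosphorylation genes, 28 proteasome genes, 19 translation factor genes, 13 glycolysis genes or 12 RNA polymerase II genes had a further site. The genes with most sites among those of at least 20 TPM were SPCC576.02, annotated as a hydantoin racemase family protein, and SPBC36.01C. SPCC576.02 had 44.1, 53.9 and 43.8 TPM spread over 4 sites, with 30.2% in the main cluster, and SPBC36.01C had 25.9, 20.3 and 20.3 TPM over 4 sites with 33.2%. The phospholipase gene plb2 (201.1, 150.3 and 178 TPM, 3 sites) had 70.8% of its tags 1075 bp upstream of the start codon, and its next site, of 24.1 TPM, lay 72 bp upstream. For dsd1, a dihydroceramide desaturase gene with 146, 127 and 128 TPM over 3 sites, the main site gave a leader of 649 bp and the next one, of 42.9 TPM, a leader of 285 bp.

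The libraries mostly shared the main site. In 98.1% of genes every library had most tags in the same cluster, and the 88 genes that differed had a median of 7.27 TPM, with 20 of them of at least 20 TPM. Most genes left little room to differ, because 4167 of 4628 had 1 site. The median share of the main cluster was 99.5%. The agreement was not counted for genes with several sites alone. In genes with 2 or more sites the share of the main site ranged over a median of 8.03 percentage points between libraries, and over at least 20 points in 63 genes. The largest such ranges among genes of at least 20 TPM, chosen after their values were seen, were in SPAC1039.03 and cwp1. In SPAC1039.03 the main site held 19.3%, 73.5% and 27.1% of 30.6, 77.6 and 30.7 TPM in replicates 1, 2 and 3. In cwp1, which encodes a prenyltransferase subunit, it held 96.1%, 45.3% and 96.0% of 30.9, 27.5 and 24.2 TPM. Replicate 2 was the library that differed in both.

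Leaders were mostly short. The distance from the main summit to the start codon had a median of 98 bp over 4589 genes, with quartiles at 40 and 213 bp, and 294 genes (6.41%) had over 500 bp. In the groups from the lowest to the highest level the median was 146.5, 137, 94, 56 and 31 bp. By list it was 18 bp for ribosomal proteins, 27 bp for the proteasome, 35 bp for translation factors, 46 bp for glycolysis and 54 bp for oxidative phosphorylation. It was 194.5 bp for cell cycle regulators, 417 bp for nitrogen and amino acid uptake and 989 bp for the glucose-repressed list, of which only 7 genes reached 1 TPM. The cyclin gene cdc13 had a leader of 1010 bp and the stress kinase kinase gene wis1, with 90.9, 90.0 and 77.1 TPM, had 811 bp. Distances are genomic and include the introns that are annotated in some leaders.

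The longest leader among genes of at least 20 TPM was that of zfs1, which encodes a zinc finger protein, at 2791 bp, with 67.4, 59.1 and 75.8 TPM. Its main cluster held 45.1% of these tags and a further site of 24.1 TPM lay 2468 bp upstream of the start codon, so either gave a long leader. For gsf2 (23.2, 23.5 and 20.4 TPM) the leader was 2039 bp and held 14 ATG triplets, and for kgd1, a subunit of 2-oxoglutarate dehydrogenase with 32.2, 23.4 and 28.5 TPM, it was 1679 bp with 15. The shortest among genes of at least 20 TPM were 1 bp, counted from the deposited summit, and the start base lies 1 bp further upstream. They were found in rad60, a DNA repair gene with 100.98, 82.1 and 75.9 TPM, in mtq1, a methyltransferase gene with 42.4, 33.8 and 28.8 TPM, and in pan5, annotated as 2-dehydropantoate 2-reductase, with 30.7, 27.2 and 27.1 TPM. Leaders of 2 bp were found in mmf1 (830.0, 906 and 650.3 TPM), erb1 and yox1, a corepressor of the MBF transcription factor with 41.3, 42.4 and 42.5 TPM. In 39 genes the main summit lay inside the annotated coding part. The highest of these, named after their values were seen, were eca39, a branched-chain aminotransferase gene with 3011, 2509 and 3259 TPM and a summit 65 bp past the annotated ATG, and igo1, a phosphatase inhibitor gene with 126, 146 and 115 TPM and a summit 27 bp past it.

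Upstream ATG triplets were common in long leaders. At least 1 was present in 1676 leaders (36.5%), from 3.67% of leaders up to 25 bp to 71.4% of those over 500 bp. Against that background, 14 of 30 cell cycle regulators (46.7%), 14 of 39 mitochondrial ribosomal protein genes (35.9%) and 30 of 52 mug genes (57.7%) had an upstream ATG. None of the 138 ribosomal protein, 33 oxidative phosphorylation, 28 proteasome, 19 translation factor or 13 glycolysis genes did. These lists differ in leader length, and no value here separates a triplet count from length. Leaders of at least 20 bp had a median A+T content of 67.9%, against 63.9% over the genome.

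The main summits followed the annotation closely. The summit lay 1 bp downstream of the annotated start in 3604 genes (77.9%) and within 10 bp of it in 87.7%, while 156 summits lay over 100 bp upstream and 53 over 100 bp downstream. The annotation may itself rest on CAGE or similar data, which was not tested. Summits also had a strong base preference. In 98.4% of genes a pyrimidine-purine step lay at the start base, 1 bp upstream of the deposited summit coordinate, against 23.1% of genome positions. CA made up 37.7% of genes, TA 34.8%, TG 18.8% and CG 7.09%, as in the promoters printed above with TA at tdh1, TG at gpm1 and CA at rps801. CA was most frequent over 1000 TPM, at 43.8% of 160 genes. Clusters inside genes differed from promoters in this, with the step in 30.2% of 1938 clusters, whereas 82.1% of 436 antisense clusters had it.

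TATAAA on the strand of the gene, 20 to 60 bp upstream of the summit, was found in 271 of 4628 promoters (5.86%). The same 6 letters were found in 4.86% of promoters in a window of equal length 120 to 160 bp upstream, and in 4.02% on the opposite strand, so the count as a whole was little above what the sequence gives elsewhere. The position of the matches was what set them apart: 200 had their first base 31 to 40 bp upstream, against 63 at 131 to 140 bp, and the commonest first base was 34 bp upstream. Promoters with the match had narrower clusters (median 16 bp against 22 bp without). From the lowest to the highest level group the medians were 12 against 25, 24 against 28, 22 against 23, 10 against 14 and 4 against 8 bp. The groups held 34, 75, 85, 62 and 15 promoters with the match, and the medians were nearly alike in the largest of them. They also had longer leaders (154 bp against 96 bp) and had further sites in 16.2% of genes against 8.91%. Promoters with the match on the opposite strand went the same way by less, with leaders of 117.5 bp against 96 bp and further sites in 11.8% against 9.23%. Those with it 120 to 160 bp upstream did not, with 84.5 bp against 98 bp and 8% against 9.40%. By list, 5 of 13 glycolysis genes had it, which were tdh1, gpm1, pgk1, gpd3 and eno102. It was present in 4 of 13 genes of nitrogen and amino acid uptake, 4 of 23 core stress genes and 4 of 30 cell cycle regulators. It was present in 1 of 138 ribosomal protein genes and in none of the 39 mitochondrial ribosomal protein or 33 oxidative phosphorylation genes.

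The HomolD letters CAGTCACA, on either strand 20 to 150 bp upstream, were found in 129 promoters (2.79%), against 0.151% in a window of the same length further upstream. Of these, 88 were ribosomal protein promoters, 63.8% of the 138, and 41 were others (0.913%). In the ribosomal protein promoters 60 had the box on the strand of the gene and 30 on the opposite strand, some on both, with the first base at a median of 50 bp upstream for the same strand and 57 bp for the opposite one. The level was higher with the box (median 1353.4 TPM in 88 genes) than without (888.6 TPM in 50 genes), while widths were alike at 10.5 and 9.5 bp. The 41 others, which the list of ribosomal protein names did not choose, had a median of 492.9 TPM against 29.3 TPM over all genes. The highest of them were tef103, cpc2, tef3, ilv5 (acetohydroxyacid reductoisomerase, 4244, 3558 and 4065 TPM), sks2, tif1 (the RNA helicase eIF4A, 3088, 3117 and 4512 TPM), tef101 and tpi1 (triosephosphate isomerase, 1425, 1768 and 1763 TPM), with ilv5 and tpi1 named after their values were seen. Among translation factors 5 of 19 had the box, which were tef101, tef102, tef103, tef3 and tif1. Both motifs were found in 3 of the 129 promoters with CAGTCACA, while 5.86% of all 4628 promoters had TATAAA. A count of 3 is too small to tell whether the motifs tend to occur apart.

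**Figure D4:**
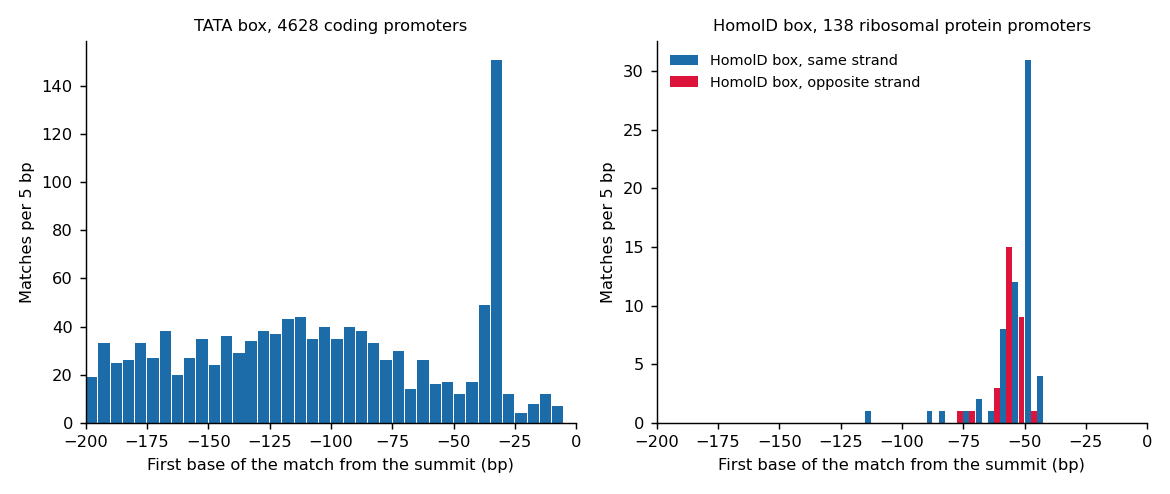
Number of matches per 5 bp against the position of the first base of the match upstream of the summit (bp), for TATAAA in 4628 coding promoters (left) and for the HomolD box on the same strand and the opposite strand in 138 ribosomal protein promoters (right). TATAAA has 200 matches between 31 and 40 bp upstream, and the HomolD box centres on 50 bp for the same strand and 57 bp for the opposite strand.

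The spread between libraries was moderate. The coefficient of variation (CV) of a gene over 3 libraries had a median of 13.4%, or 12.1% with the counting variance subtracted, and quartiles of 8.39% and 20.3%. From the lowest to the highest level group the median was 21.8%, 14.99%, 12.3%, 11.7% and 10.7%. Among genes of at least 20 TPM the most even were lsm1, of the decapping complex, with 55.10, 54.96 and 54.90 TPM, and tbp1, the TATA-binding protein, with 184, 186 and 184 TPM. With 3 libraries the smallest of 2816 CVs say little of the gene itself. By list, the median CV was 10.2% for ribosomal proteins, 10.6% for chaperones and 11.2% for the proteasome, and 16.8% for glycolysis, 22.4% for core stress and 27.8% for nitrogen and amino acid uptake. Levels as log2(TPM + 0.5) correlated across genes with Pearson's r of 0.990 between replicates 1 and 3, 0.976 between 1 and 2 and 0.977 between 2 and 3. The genes are not independent replicates.

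Replicate 2 differed from both other libraries more than either of them did, in both directions. It was the lowest library in 48.0% of genes and the highest in 24.1%. Its levels were also slightly lower in general. The median ratio of a gene to its geometric mean over the libraries was 1.04, 0.959 and 1.01 in replicates 1, 2 and 3. The part of this offset in the 48.0% was not tested. In 28 genes replicate 2 was at least 4 times both others, in 71 (1.53%) at least 2 times both, and in 60 (1.3%) at most 0.5 times both. The same counts were 0, 4 and 7 for replicate 1 and 0, 5 and 25 for replicate 3. Among genes of at least 5 TPM, replicate 2 was at least 2 times both others in 40 and at most 0.5 times both in 52. The minima of 1 and 5 TPM are on means that include replicate 2. Some genes counted as high in it therefore reached a minimum only through that library, and these counts are not free of that choice. Genes low in replicate 2 included SPBC215.06C, annotated as a LYHRT family protein, with 262, 53.6 and 229 TPM, and alg10, a glucosyltransferase gene of glycan assembly, with 20.8, 4.10 and 20.6 TPM. The genes high in replicate 2 included several for uptake or use of nitrogen sources. SPAC869.03C, annotated as a urea transporter, had 0, 150.2 and 3.19 TPM in replicates 1, 2 and 3, and its neighbour SPAC869.04, annotated as a formamidase-like protein, had 0, 118 and 2.18 TPM. A further annotated urea transporter, SPBC23G7.13C, had 0.199, 14.6 and 0.455 TPM, and the amino acid permease gene isp5 had 1.64, 85.1 and 2.53 TPM. In each of these replicate 2 lay far above both other libraries.

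Replicate 2 was also the high library for a few genes of meiosis and mating. The gene of Mei2, the RNA-binding protein that drives entry into meiosis, had 7.42, 189.9 and 9.61 TPM, and mfm1 had 0.847, 93.8 and 6.22 TPM. Other genes of these lists did not show it, among them mei4, a transcription factor of meiosis, with 2.49, 2.76 and 2.63 TPM and mam4, a methyltransferase that acts on M-factor, with 1.35, 1.26 and 1.42 TPM. Outside these lists pil2, an eisosome gene, had 0.149, 24.0 and 0.708 TPM, thi2, a thiazole synthesis gene of the thiamine pathway, had 98.5, 1790.5 and 126 TPM, and zym1, a metallothionein, had 9.17, 53.6 and 9.11 TPM. Of the 71 genes, 22 (30.99%) had TATAAA in the near window, against 5.86% of all promoters, and their clusters were narrow, with a median of 9 bp against 22 bp. The median level of the 71 was 5.94 TPM, against 29.3 TPM over all genes, and some of them reached 1 TPM only through replicate 2.

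By list, replicate 2 was at least 2 times both others in 4 of 13 genes of nitrogen and amino acid uptake (30.8%) in 3 of 23 core stress genes (13.0%), in 2 of 18 genes of meiosis and sporulation (11.1%) and in 2 of 5 M-type genes, against 1.53% of all genes. In the nitrogen list these were isp5, put4 (a proline transporter, 32.4, 77.2 and 27.3 TPM), isp6 (a vacuolar protease, 17.2, 71.2 and 19.1 TPM) and isp7 (an oxygenase, 10.16, 24.996 and 9.21 TPM). Summed levels in replicates 1, 2 and 3 were 343, 522 and 366 TPM for that list. The rise was not shared by the whole list, since replicate 2 was the highest library in 7 of the 13 genes and the lowest in 6. The 31 genes of meiosis and sporulation summed to 333, 494 and 315 TPM, but to 326, 304 and 305 TPM without mei2, which carried the difference. The 8 M-type genes summed to 21.9, 141 and 20.8 TPM, and to 21.1, 46.7 and 14.6 TPM without mfm1. Of the 5 M-type genes counted above, sxa2 reached a mean of 1 TPM only through replicate 2, and 4 reached it without that library. The ribosomal protein list summed to 255513, 278283 and 276979 TPM, with replicate 2 within 1.05 times the mean of the others. Without replicate 2, an alternative chosen after seeing the data, the median CV over the other 2 libraries was 6.97% for the nitrogen list and 11.5% for core stress, against 9.55% for all genes. The median level of the nitrogen list was then 18.2 TPM, against 23.5 TPM with it, while that of all coding genes was 29.9 TPM against 29.3 TPM. The part that culture, depth or library preparation had in this was not tested.

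**Figure D5:**
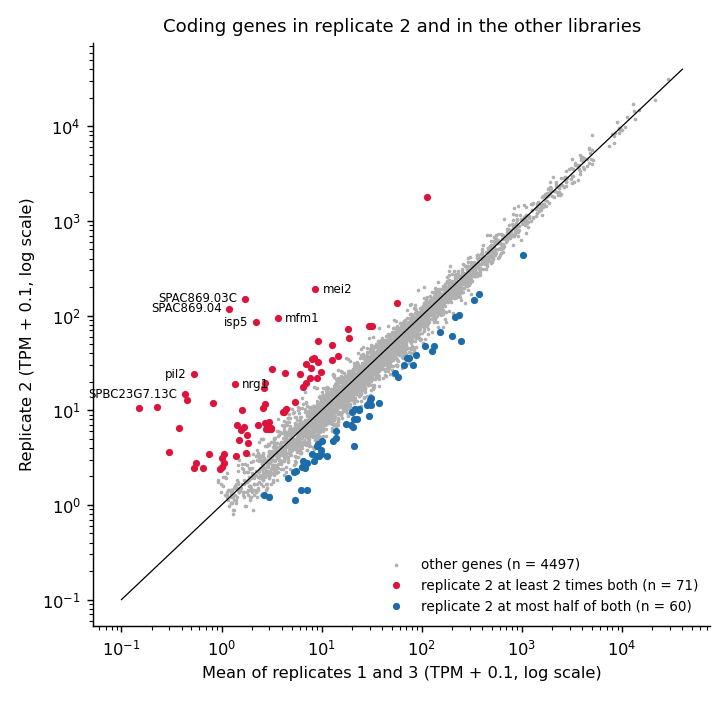
Level of 4628 coding genes in wild-type replicate 2 against the mean of replicates 1 and 3, both as TPM + 0.1 on log axes, with the line of equal level. The 71 genes at least 2 times both other libraries (red) lie mostly under 100 TPM. The minimum level is on a mean that includes replicate 2, and some of the 71 reached it only through that library. Among genes averaging 5 TPM or more, the 8 with the largest ratio are named, led by SPAC869.04 and SPAC869.03C.

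Outside coding promoters the levels were low with a few exceptions. Of 7177 non-coding RNA windows 506 reached 1 TPM, with a median of 2.29 TPM. The highest was mrp1, the RNA of RNase MRP, with 244, 311 and 157 TPM. It was followed by SPNCRNA.1097 with 64.6, 67.9 and 55.9 TPM and SPNCRNA.722 with 61.0, 36.4 and 54.0 TPM. The RNA mamRNA, known to act in the removal of meiotic RNAs during growth, had 39.6 ± 4.03 TPM (SD, n = 3).

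Sense clusters inside genes of at least 1 TPM numbered 1938 in 1012 genes, of which 1871 lay in coding parts, and 88 exceeded the promoter level of their gene. The median was 1.49% of that level. The genes that held them had a median of 82.4 TPM, against 29.3 TPM over all coding genes of at least 1 TPM. Genes of at least 1000 TPM, 3.13% of coding genes, held 12.4% of the clusters. Their median width was 54 bp, against 23 bp for coding promoter clusters, and 30.2% had the pyrimidine-purine step, against 23.1% of genome positions. How many of them mark a start site was not tested. The highest lay in SPAC8C9.04, with 641, 789 and 466 TPM against a promoter level of 109 TPM, at chrI:3646910-3646960, and in elo1, a fatty acid elongase gene, with 434, 423 and 568 TPM against 17.6 TPM, at chrI:253691-253698. In asc1 the inner cluster at chrI:4638253-4638272 had 240, 266 and 253 TPM against 2.58 TPM. Its summit lay 155 bp past the annotated start, beyond the window bound of 100 bp. In pus4, named after its values were seen, a cluster of 228 TPM lay 110 bp past the annotated start. That gene was counted above as having no tag, so the bound lowers the promoter levels of such genes. Antisense clusters of at least 1 TPM numbered 436 in 348 genes, and 100 exceeded the sense level. The highest was in rib7, a riboflavin synthesis gene, with 144, 139 and 172 TPM against 2.55 TPM in the sense direction, at chrII:3812631-3812867, and the next was in eta2, with 39.8, 44.6 and 48.4 TPM against no sense tag, at chrI:3003374-3003691.

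Some clusters lay in no promoter window and in no coding gene on either strand, and the highest are named here after their values were seen. The first, at chrI:4911709-4911713, had 818, 729 and 844 TPM and lay 540 bp upstream of mae1, a malate transporter gene whose own window held 2.63 TPM, over the annotated non-coding RNA SPNCRNA.4210. The next, at chrIII:817951-817953, had 690, 535 and 780 TPM and lay 507 bp upstream of ctr4, a copper transporter gene with 3.29 TPM in its window. A cluster of 315, 319 and 172 TPM lay 1023 bp upstream of the superoxide dismutase gene sod1, whose window held 33.0, 58.0 and 26.8 TPM, over the annotated non-coding RNA SPNCRNA.2443. These lie just outside the 500 bp window or further, so the levels of such genes given above are lower than they would be with a wider one.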

How the data were processed

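CAGE tags of 3 wild-type libraries were analysed over the tag clusters of chromosomes I to III. Values in RPM were deposited by the authors under the name TPM (T for tags), relative to each library's total. Between 99.7% and 99.8% of those above 0 were whole tags within 0.02 tags, from which tags were recovered. CASAVA 1.6, Bowtie 0.12.7, bedtools 2.15.0 and build ASM294v2 are named per the submitters' processing notes, with no roles. Genes and sequences came from RefSeq's annotation of ASM294v3. In each of 4 parts of each chromosome between 96.8% and 100% of promoter summits had a pyrimidine-purine step 1 bp upstream. A cluster in several promoter windows went to the nearest annotated start. No conditions were compared and no test was run. Levels are means of the 3 libraries. A TATA box was searched as TATAAA and a HomolD box as CAGTCACA, both as exact letters. The genes and lists were chosen with earlier results of these data known, and the ribosomal protein, proteasome and mating type lists were corrected for wrong members after values were seen. Named genes are the highest 25, the extremes of width, site number, leader, CV and library ratio (8 each), genotype genes and, per list, the 3 highest and the lowest, and others are marked. Extremes of library ratio were ranked among genes averaging 5 TPM or more. Alternatives changed the minimum level, the window, the site share, the motif window and the libraries. Scripts used Python 3.11.15, NumPy 2.4.6, pandas 2.3.3 and Matplotlib 3.10.9, and were tested on simulated data. The names rpn1201, pre2, atp21, sme2 and pyc1 matched no gene and were not used.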

Additional observations from a re-analysis of the deposited data

How the results depend on the processing

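No paired analysis was possible because no groups were compared. Across 44 alternatives other than leaving out a library, 20 values of the 11 summary results stayed within the spread between libraries or, for counts, within 1.5 times, and 24 moved further. A minimum of 5 TPM gave 4959 clusters in place of 9076. A minimum of 0.5 TPM or 5 TPM gave 10.9% or 4.12% of genes with 2 or more sites in place of 9.33%, a median leader of 92 bp at 5 TPM in place of 98 bp, 97.7% or 98.7% with the same main site in place of 98.1%, and 98.3% or 98.4% with the pyrimidine-purine step in place of 98.4%. Windows from 200 or 1000 bp upstream gave 97.0% or 97.9% of tags in promoters in place of 97.4%, 7.28% or 10.5% of genes with several sites, leaders of 95 or 100 bp and 98.5% or 97.6% with the same main site. A site share of 5% or 20% gave 12.2% or 5.79% of genes with several sites. The median width over all promoter clusters was 23 bp in place of 22 bp. The leader was 96 bp with introns removed and 99 bp with the summit moved 1 bp upstream. Read at the deposited summit, 0.843% had the step. TATAAA was found in 17.3% of promoters in a window of 20 to 150 bp in place of 5.86%, and CAGTCACA in 58.0% of ribosomal protein promoters in a window of 20 to 60 bp in place of 63.8%. The cause was not tested beyond what each setting changes by its construction. Without each library in turn, the values ranged from 9029 to 9162 clusters, 97.42% to 97.46% of tags in promoters, 4616 to 4632 genes of at least 1 TPM, 9.03% to 9.499% with several sites, 98.53% to 99.18% with the same main site, 98.38% to 98.42% with the step, 5.61% to 5.96% with TATAAA and 9.55% to 12.3% for the median CV, lowest without replicate 2. With a library left out, the share with the same main site compares 2 libraries in place of 3, which leaves fewer ways to differ. Borders and summits were set once over all libraries, so leaving out a library could change only which cluster or gene was counted, and the median width stayed at 22 bp, the median leader at 98 bp and the CAGTCACA share at 63.8%. Precision is limited by 3 libraries that may share a culture, by clusters drawn over all libraries of the series, and below 5 TPM by tag counts.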
